A study of Sparus aurata with 9 samples.

Results

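The thin filament is the actin-based partner of the myosin filament in the sarcomere, and its genes were followed here in cultured myoblasts of gilthead sea bream (Sparus aurata). The genes were taken by symbol: actins, troponins C, I and T, tropomyosins, tropomodulins, leiomodins, cap2 and cfl2. The rule matched 34 of the 27159 genes in the deposited table, and genes that share a symbol were kept apart by their Ensembl identifier. No nebulin gene was among them.

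Each of 9 libraries held the poly(A) RNA of cells isolated from fast-twitch muscle and grown for 8 days, with 3 libraries per group. All cells were then starved of amino acids for 12 h. Over the 24 h that followed, the AA cells received a medium with amino acids (DMEM), the Igf-1 cells received recombinant sea bream insulin-like growth factor 1 with an albumin carrier in the medium without amino acids, and the control cells (CTR) stayed in that medium, a salt solution with glucose and vitamins, 36 h in all. The AA and CTR media therefore differ in more than their amino acids. The study used 3 independent cultures of a mixture of dividing and fusing cells, and which library came from which culture is not given. A p-value here therefore sets a group difference against the spread between these libraries, taken as independent.

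In striated muscle, actin subunits polymerise into a filament, tropomyosin lies along it, and the troponin complex sits on tropomyosin at regular steps. Troponin C binds calcium, troponin I keeps tropomyosin over the myosin sites on actin at rest, and troponin T holds the complex on tropomyosin. Tropomodulins cap the pointed end of the filament, leiomodins nucleate and lengthen it there, and cofilin and Cap proteins sever and recycle actin. When myoblasts fuse, cytoplasmic actins give way to sarcomeric ones, and fast-twitch fibres use the fast isoforms of the troponins, among them TNNC2, TNNI2 and tnnt3a.

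The libraries held 48725967 to 67887824 counts. The 34 genes took 2.06 to 2.38% of the counts in AA, 1.78 to 1.85% in Igf-1 and 1.75 to 1.90% in CTR. AA replicate 2 and CTR replicate 3 stood apart from the other libraries on the second principal component of all genes. In CTR replicate 3 the median thin filament gene lay 0.32 (log2) above the CTR mean, against -0.16 and -0.11 in CTR replicates 1 and 2.

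Of the 34 genes, 28 had enough counts for the test. The troponin I genes tnni4b.2 and tnni1b had too few. Troponin I gene tnni1c, troponin T genes tnnt2b and TNNT1 and leiomodin lmod2a were listed at 0 in all 9 libraries. At about 4 counts per sequenced pair, a 0 allows up to 12 counts in a library. Some symbols and deposited descriptions disagree. The gene with the symbol tnni2a.3 is described as a fast skeletal troponin T and is counted here with troponin T, tmod2 is described as similar to tropomodulin 3, both ACTA1 genes as cardiac alpha actin, and an ACTG1 gene as actin beta. In addition, tnni3k is a kinase named after its binding partner and no part of the filament.

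The levels of these genes spanned several orders of magnitude. FPKM, the read count scaled to transcript length and to the mapped fragments of the library, allows levels to be set side by side between genes. Averaged over the 9 libraries, 11 genes exceeded 100 FPKM, 10 lay between 10 and 100, 2 between 1 and 10, and 7 below 1 but above 0. The highest was a cytoplasmic actin, ACTG1 (ENSSAUG00010015428, described in the table as actin beta), with a mean of 5081 FPKM. It was followed by the sarcomeric actin ACTA1 (ENSSAUG00010015572) with 1163 FPKM, the second ACTG1 (ENSSAUG00010005095) with 877 FPKM, TNNC2 with 549 FPKM and cfl2 with 509 FPKM. The slow troponin I gene tnni1a averaged 0.281 FPKM. Of the slow and cardiac-type troponin C genes, tnnc1a averaged 0.166 FPKM and tnnc1b 116 FPKM.

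**Figure D1:**
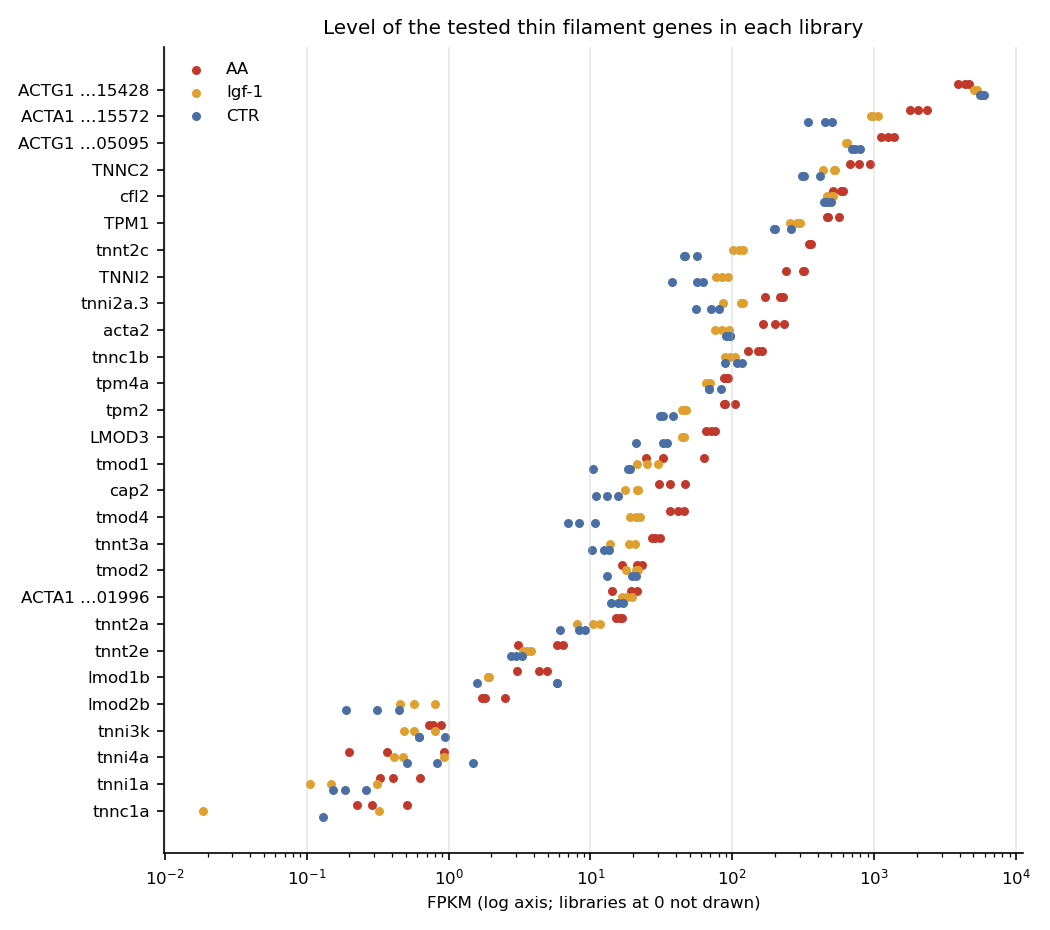
FPKM (x axis, log scale) of the 28 tested thin filament genes in each library, ordered by mean level, with AA, Igf-1 and CTR libraries offset vertically within each gene. The ACTG1 gene ENSSAUG00010015428 is highest, with a mean of 5081 FPKM, and 5 genes average less than 1 FPKM; libraries listed at 0 are not drawn.

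The first question was how these genes differed between cells given amino acids and cells kept without them. With AA, 13 of the 28 tested genes were higher than in CTR and 0 were lower, by edgeR's quasi-likelihood test. A gene was called where its adjusted p did not exceed 0.05 and its log2 fold change reached 1 in either direction. Among all 17687 genes tested, 4.83% were called higher and 3.79% lower by the same rule. The called genes were 1 sarcomeric actin, 1 troponin C, 1 troponin I, 3 troponin T, 2 tropomyosin, 2 tropomodulin and 2 leiomodin genes and cap2. The log2 fold changes of the 28 genes ran from -0.88 to 3.00 with a median of 1.07, against a median of -0.01 over all genes. The lowest belonged to tnni4a and the largest to tnnc1a, both of which had few counts. All 3 AA libraries were above all 3 CTR libraries for 17 of the 28 genes, against 14.6% of all genes, and below them for 1 gene, against 16.0%. Because these are bulk cultures, fewer cells of a type and less RNA per cell cannot be told apart in any of these values.

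**Figure D2:**
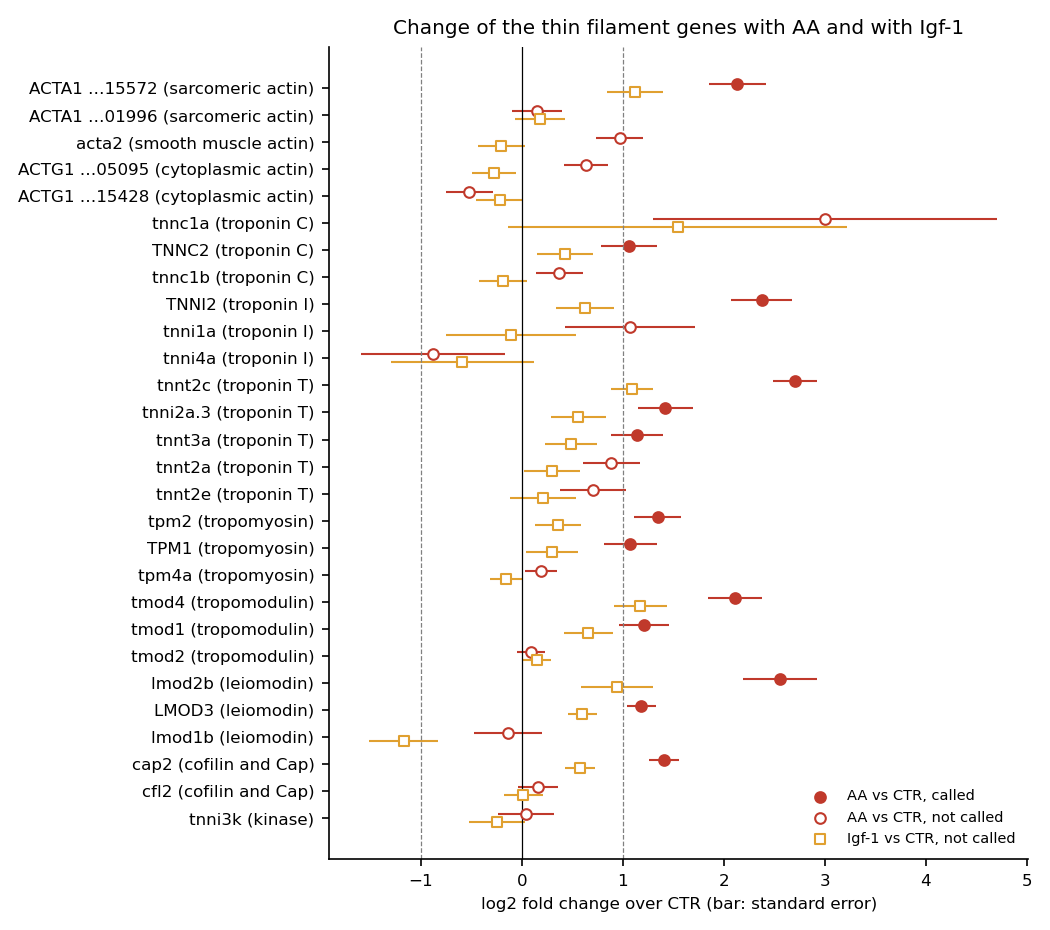
Log2 fold change over CTR (x axis) of the 28 tested genes with AA (circles) and with Igf-1 (squares), grouped by role; bars are standard errors, filled symbols passed the test and dashed lines mark a log2 fold change of 1 in size. With AA 13 genes passed, all higher; with Igf-1 0 passed.

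Among the actins, the main sarcomeric gene rose with AA while the most abundant cytoplasmic gene did not. ACTA1 (ENSSAUG00010015572), the skeletal-type alpha actin in its deposited symbol, had 206187, 261454 and 151629 normalized counts in AA against 44099, 32087 and 65174 in CTR. A normalized count is the count scaled to a common library size. No AA library overlapped a CTR library, and the lowest AA value was more than double the highest CTR value. The rise was 4.38-fold (log2 fold change 2.13 ± 0.28, SE; edgeR adjusted p = 0.000876).

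The study also measured acta1 by qPCR in independent cultures, and states that qPCR and RNA-Seq were concordant for the transcripts measured. Its qPCR values were not used here. The forward primer that it lists beside this identifier is shown 5′ to 3′. The primer was not matched here to the sequence of either ACTA1 gene.
acta1 forward: ctatgtgggggacgaagcc

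The second ACTA1 gene (ENSSAUG00010001996) had 1887, 2267 and 1155 normalized counts in AA against 1578, 1268 and 1939 in CTR. Its groups overlapped, and its log2 fold change was 0.15 ± 0.25 (edgeR adjusted p = 0.766). Per length, the first ACTA1 stood 105, 111 and 126 times above the second in AA, against 26.8, 24.3 and 32.3 times in CTR. Both identifiers point to the same NCBI gene entry, which RefSeq calls actc1b, a cardiac-type alpha actin, so how reads were divided between them is uncertain.

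The 2 cytoplasmic ACTG1 genes, which build the cortical and stress-fibre actin of every cell, moved apart. ACTG1 (ENSSAUG00010015428) had 635391, 644026 and 443853 normalized counts in AA against 726192, 724952 and 1021537 in CTR. Every AA library was below every CTR library, but the difference did not pass the test (log2 fold change -0.52 ± 0.23, edgeR adjusted p = 0.172). ACTG1 (ENSSAUG00010005095), reported outside the rule for named genes and chosen after its values were seen, had 153617, 152947 and 104372 normalized counts in AA against 79106, 72562 and 113001 in CTR. AA replicate 3 lay below CTR replicate 3, and the gene did not pass either (log2 fold change 0.63 ± 0.22, edgeR adjusted p = 0.0836).

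Within each library, however, the ratio of these 2 genes was close to constant inside a group. The second gene's FPKM was 29.2, 28.7 and 28.4% of the first's in AA, 12.9, 12.6 and 12.0% in Igf-1, and 13.2, 12.1 and 13.4% in CTR. The AA libraries stood well above the other 6, while the Igf-1 and CTR values overlapped. This ratio was chosen after the values were seen and carries no test. Sequences of the actin genes were not compared here. The division of reads among these related genes rests on the authors' counting and was not checked.

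The smooth muscle alpha actin acta2, which is also active early in muscle differentiation in mammals, had 28491, 26870 and 17094 normalized counts in AA against 11353, 10440 and 15182 in CTR. The groups did not overlap. Its log2 fold change of 0.97 ± 0.23 had an edgeR adjusted p of 0.0182 but missed the fold threshold. The gene was called without AA replicate 3 (log2 fold change 1.17, edgeR adjusted p = 0.00640) and without CTR replicate 3 (1.18, 0.00924). It was also called with CTR replicate 3 and AA replicate 2 both left out (1.08, 0.0136), a setting chosen after seeing the data.

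These differences changed the composition of the actin pool. Sarcomeric actins made up 24.5, 29.1 and 25.7% of the summed actin FPKM in AA (26.4% ± 2.34, SD, n = 3), against 6.81, 5.12 and 7.08% in CTR (6.34% ± 1.06, SD, n = 3). Cytoplasmic actins made up 72.7, 68.5 and 71.9% in AA and 91.8, 93.6 and 91.6% in CTR. The summed actin FPKM itself was 7859 ± 737 in AA and 7051 ± 256 in CTR (SD, n = 3 each), so the shares moved far more than the total. These totals were not TMM-scaled, so the direction of their small difference depends on the library scaling, while the shares do not.

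**Figure D3:**
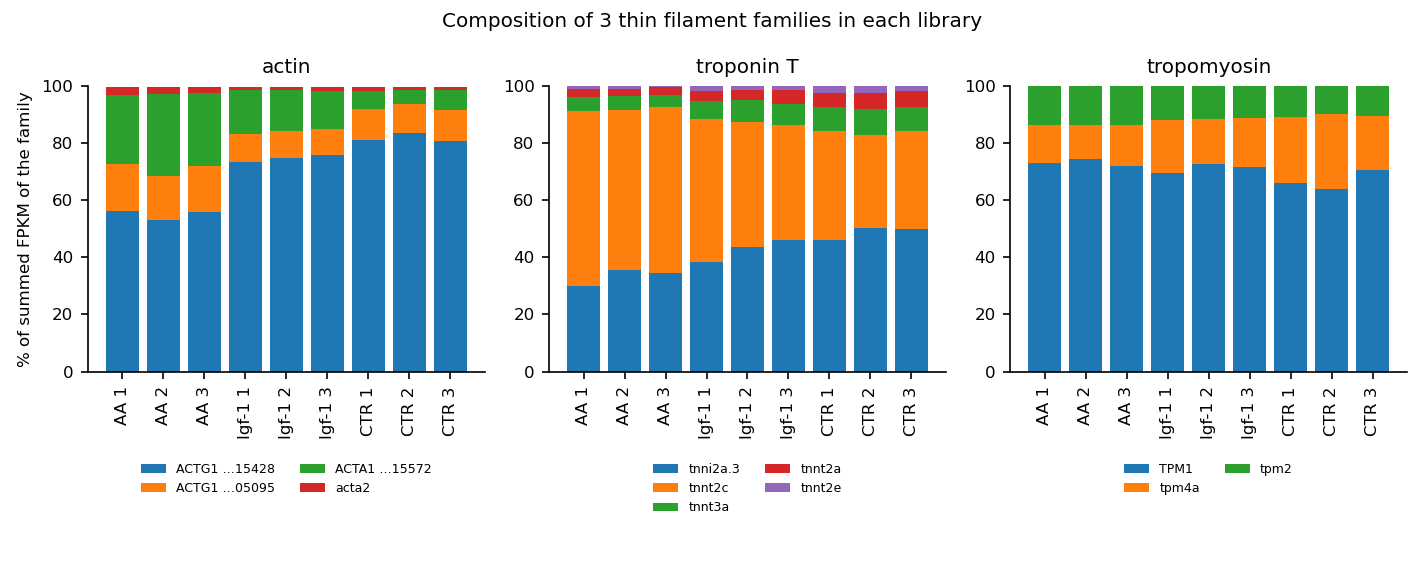
Share of the summed FPKM (y axis, percent) that each gene took within the actins, the troponin T genes and the tropomyosins, in each of the 9 libraries; genes under 0.5% everywhere are not drawn. The ACTA1 gene ENSSAUG00010015572 took 24.3 to 28.8% of the actins in AA, 13.6 to 15.6% in Igf-1 and 4.92 to 6.87% in CTR.

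Among the troponins, the fast-muscle subunits and tnnt2c were higher with AA. TNNI2 (ENSSAUG00010012899), the fast skeletal troponin I, had 27167, 29989 and 17259 normalized counts in AA against 4648, 2982 and 6738 in CTR. The groups were far apart, and the rise was 5.18-fold (log2 fold change 2.37 ± 0.30, edgeR adjusted p = 0.000676). TNNI2 made up 98.6 to 99.7% of the troponin I FPKM in AA and Igf-1 libraries and 95.5 to 98.9% in CTR.

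The other tested troponin I genes, tnni4a and tnni1a, had between 9 and 70 normalized counts in any library and did not pass. TNNC2 (ENSSAUG00010017373), the fast skeletal troponin C, had 89447, 135204 and 86906 normalized counts in AA against 39329, 39598 and 70114 in CTR. The groups were separate but close, since CTR replicate 3 stood well above its group, and the log2 fold change was 1.06 ± 0.28 (edgeR adjusted p = 0.0269).

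This call was lost without AA replicate 2 (adjusted p = 0.0832), CTR replicate 1 (0.0966) or CTR replicate 2 (0.0990), and in a fit of the AA and CTR libraries alone (0.0720). The slow and cardiac-type troponin C tnnc1b, at 17507 ± 3800 normalized counts in AA and 13531 ± 4168 in CTR (SD, n = 3 each), did not pass (log2 fold change 0.37 ± 0.24, edgeR adjusted p = 0.351). Its share of troponin C FPKM was 13.9 to 19.2% in AA and 21.6 to 25.8% in CTR. The paralog tnnc1a had at most 39 normalized counts, and at 0 in 2 CTR libraries its fitted change is no measure of size.

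Of the troponin T genes, tnnt2c (ENSSAUG00010012240), a paralog of the cardiac-type troponin T, changed most. It had 18241, 20151 and 15824 normalized counts in AA against 2302, 2257 and 3755 in CTR. Each AA library was more than 4 times the highest CTR library, and the rise was 6.52-fold (log2 fold change 2.71 ± 0.22, edgeR adjusted p = 8.87e-05).

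The fast-type gene tnni2a.3 (ENSSAUG00010004903) had 38557, 55946 and 41135 normalized counts in AA against 12117, 15072 and 23480 in CTR. It rose 2.68-fold (log2 fold change 1.42 ± 0.28, edgeR adjusted p = 0.00647). The fast troponin T tnnt3a (ENSSAUG00010012907) had 2716, 3210 and 2147 normalized counts in AA against 936, 1106 and 1630 in CTR. Its groups were separate by a smaller margin, with a log2 fold change of 1.14 ± 0.26 (edgeR adjusted p = 0.0147), and the call was lost without AA replicate 2 (log2 fold change 0.99), CTR replicate 1 (adjusted p = 0.0577) or CTR replicate 2 (0.0594).

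The composition of troponin T therefore differed between groups. tnnt2c took 61.3, 55.8 and 57.8% of the troponin T FPKM in AA against 38.0, 32.6 and 34.5% in CTR, and tnni2a.3 took 29.9, 35.8 and 34.7% in AA against 46.1, 50.3 and 49.8% in CTR. By FPKM, tnnt2c was the higher of the pair in every AA library, and tnni2a.3 was in every CTR library. By normalized counts, which are not scaled to length, tnni2a.3 was the higher in all 9 libraries. In AA it averaged 45213 normalized counts, against 18072 for tnnt2c. Which of the pair was higher in AA therefore depends on the length scaling. tnnt2a and tnnt2e each took under 6% in every library and did not pass, with log2 fold changes of 0.89 ± 0.28 (edgeR adjusted p = 0.0579) and 0.70 ± 0.33 (edgeR adjusted p = 0.194). In the RefSeq gene order of the assembly fSpaAur1.1, TNNI2 and tnnt3a lie 4 places apart. Their log2 fold changes were 2.37 ± 0.30 for TNNI2 and 1.14 ± 0.26 for tnnt3a.

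Both muscle tropomyosins rose with AA. TPM1 (ENSSAUG00010022272), the alpha chain, had 98545, 128085 and 81723 normalized counts in AA against 39109, 38909 and 68405 in CTR. Its log2 fold change was 1.07 ± 0.26 (edgeR adjusted p = 0.0201), but the call was lost without AA replicate 2 (adjusted p = 0.0623), CTR replicate 1 (0.0772) or CTR replicate 2 (0.0783) and in the fit of AA and CTR alone (0.0625). tpm2 (ENSSAUG00010025085), the beta chain, had 13211, 17209 and 11136 normalized counts in AA against 4676, 4335 and 7359 in CTR.

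The tpm2 rise was 2.54-fold (log2 fold change 1.34 ± 0.23, edgeR adjusted p = 0.00346) with no overlap between groups. The third tropomyosin, tpm4a, which in mammals belongs to the cytoskeleton of non-muscle cells, had 14829 ± 1646 normalized counts in AA and 13018 ± 1856 in CTR (SD, n = 3 each) and did not pass (log2 fold change 0.19 ± 0.16, edgeR adjusted p = 0.501). Its share of tropomyosin FPKM was 11.8 to 14.3% in AA and 18.9 to 26.4% in CTR.

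Of the 6 tested pointed-end genes, 4 rose with AA: tmod4, tmod1, LMOD3 and lmod2b. tmod4 (ENSSAUG00010011076), the skeletal muscle tropomodulin, had 3823, 5204 and 3649 normalized counts in AA against 833, 675 and 1432 in CTR. It rose 4.32-fold (log2 fold change 2.11 ± 0.27, edgeR adjusted p = 0.000658). tmod1 (ENSSAUG00010007814), a tropomodulin of striated muscle and red cells, had 4038, 3290 and 6526 normalized counts in AA against 2185, 2187 and 1624 in CTR.

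The tmod1 groups did not overlap, with AA replicate 3 well above the other AA libraries (log2 fold change 1.21 ± 0.24, edgeR adjusted p = 0.00793). Without AA replicate 3 its log2 fold change was 0.87, below the fold threshold. tmod2, whose deposited description is that of a tropomodulin 3, had 4887 ± 388 normalized counts in AA and 4593 ± 459 in CTR (SD, n = 3 each), and its log2 fold change was 0.09 ± 0.14 (edgeR adjusted p = 0.749).

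LMOD3 (ENSSAUG00010005019), the leiomodin whose loss causes nemaline myopathy in humans, had 4229, 5016 and 4094 normalized counts in AA against 2171, 1961 and 1740 in CTR. The replicates were tight, and the rise was 2.27-fold (log2 fold change 1.18 ± 0.15, edgeR adjusted p = 0.000623). lmod2b (ENSSAUG00010027423), a paralog of the cardiac leiomodin, was scarce at 190, 213 and 227 normalized counts in AA against 33, 46 and 27 in CTR, and still rose 5.86-fold (log2 fold change 2.55 ± 0.37, edgeR adjusted p = 0.00134). The third tested leiomodin, lmod1b, had 1111, 736 and 812 normalized counts in AA against 1249, 1217 and 453 in CTR, which overlapped (log2 fold change -0.14 ± 0.34, edgeR adjusted p = 0.854). LMOD3 made up 90.7 to 93.6% of the leiomodin FPKM in AA and 83.8 to 92.2% in CTR.

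The actin-recycling genes differed from each other. cap2 (ENSSAUG00010004055), the Cap protein enriched in striated muscle, had 5674, 7285 and 7191 normalized counts in AA against 2330, 2688 and 2587 in CTR. The groups were far apart, at 2.65-fold (log2 fold change 1.41 ± 0.15, edgeR adjusted p = 0.000281). cfl2 (ENSSAUG00010025456), the muscle cofilin and the more abundant of the pair, had 23296, 29395 and 21964 normalized counts in AA against 19081, 19622 and 28221 in CTR.

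The cfl2 groups overlapped (log2 fold change 0.16 ± 0.20, edgeR adjusted p = 0.678). The kinase tnni3k had 332, 297 and 244 normalized counts in AA against 222, 330 and 296 in CTR, which overlapped as well (log2 fold change 0.04 ± 0.28, edgeR adjusted p = 0.952).

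**Figure D4:**
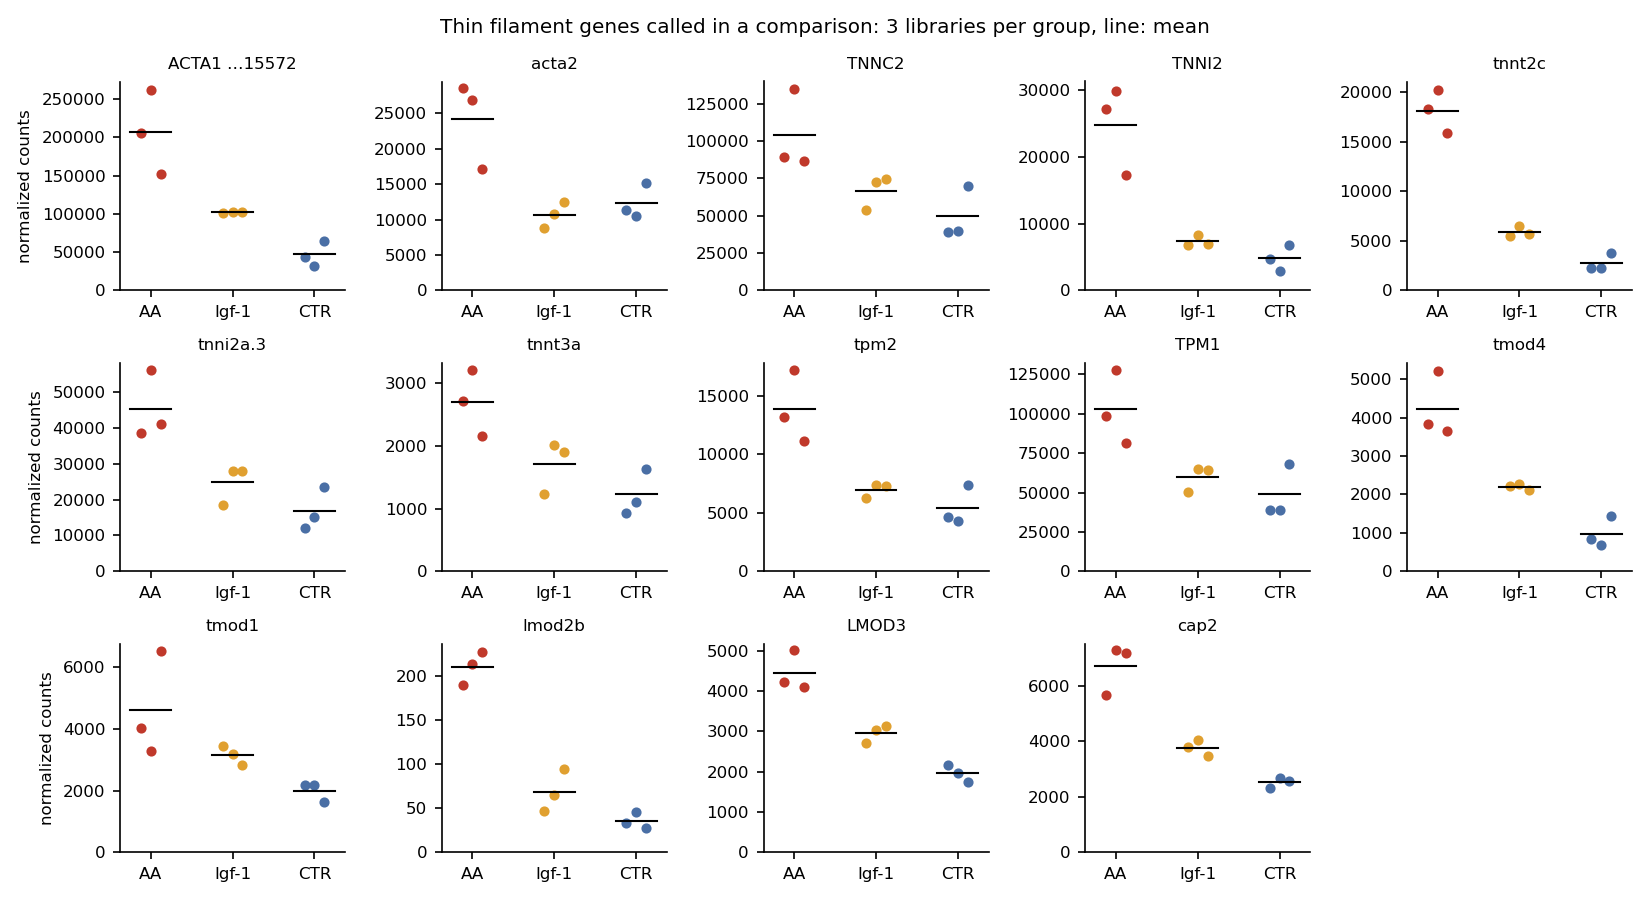
Normalized counts (y axis, linear and starting at 0) of the 14 thin filament genes called in at least 1 comparison, with 1 point per library and a line at the mean of each group of 3. For 13 of the genes all AA libraries lie above all CTR libraries and the gene was called; acta2 was called only between AA and Igf-1.

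The second question was how the genes differed between cells given Igf-1 and CTR cells. With Igf-1, 0 of the 28 genes passed edgeR's quasi-likelihood test, against 0.141% of all genes called higher and 0.119% called lower. At an unadjusted p under 0.05 there were 8 genes, 7 higher and 1 lower, against 9.11% of all genes in either direction, and DESeq2 called 4 of the 28 (3 higher and 1 lower) and 208 of all genes. The median log2 fold change was 0.30, against -0.0045 over all genes, and all Igf-1 libraries lay above all CTR libraries for 8 of the 28, against 9.35% of all genes.

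The highest ranked gene was again tnnt2c, with 5531, 6490 and 5678 normalized counts in Igf-1 against 2302, 2257 and 3755 in CTR. The groups did not overlap, but the log2 fold change of 1.09 ± 0.21 had an edgeR adjusted p of 0.0650. tmod4 had 2209, 2280 and 2128 normalized counts in Igf-1 against 833, 675 and 1432 in CTR (log2 fold change 1.17 ± 0.26, edgeR adjusted p = 0.106). ACTA1 (ENSSAUG00010015572) had 101379, 102146 and 102919 normalized counts in Igf-1 against 44099, 32087 and 65174 in CTR (log2 fold change 1.12 ± 0.28, edgeR adjusted p = 0.145).

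For both genes the Igf-1 libraries were nearly identical and all above CTR, while the CTR libraries were spread, with replicate 3 highest. DESeq2 called these 3 genes higher, with adjusted p = 0.000401 for tnnt2c, 0.00412 for tmod4 and 0.00633 for ACTA1. Without CTR replicate 3, edgeR called tnnt2c (log2 fold change 1.37, adjusted p = 0.0178) and tmod4 (1.54, adjusted p = 0.0212). With AA replicate 2 also left out, a setting chosen after seeing the data, it called ACTA1 (1.42, adjusted p = 0.0146). AA replicate 2 is in neither of the groups compared here, and leaving out the highest CTR library raises these fold changes.

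LMOD3 had 2717, 3037 and 3142 normalized counts in Igf-1 against 2171, 1961 and 1740 in CTR (log2 fold change 0.60 ± 0.15, edgeR adjusted p = 0.141). cap2 had 3791, 4064 and 3463 normalized counts in Igf-1 against 2330, 2688 and 2587 in CTR (log2 fold change 0.57 ± 0.15, edgeR adjusted p = 0.159). Neither overlapped CTR, and both were under the fold threshold. The remaining genes named above showed smaller differences relative to their error. lmod2b had a log2 fold change of 0.94 ± 0.36 (edgeR adjusted p = 0.422), tmod1 0.66 ± 0.24 (0.398) and TNNI2 0.62 ± 0.29 (0.570). For each of these every Igf-1 library lay above every CTR library. TPM1 had 0.30 ± 0.26 (edgeR adjusted p = 0.873), tpm2 0.36 ± 0.23 (0.766) and TNNC2 0.43 ± 0.28 (0.768), with groups that overlapped.

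Sarcomeric actins made up 15.8, 14.4 and 13.9% of the actin FPKM in Igf-1 (14.7% ± 1.02, SD, n = 3), against 6.34% ± 1.06 in CTR. tnnt2c took 50.03, 43.8 and 40.4% of the troponin T FPKM in Igf-1, against 38.0, 32.6 and 34.5% in CTR. In both measures the Igf-1 libraries lay between those of AA and CTR with no overlap. These shares are given without a test.

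The AA and Igf-1 comparisons share the CTR libraries, so AA and Igf-1 were also set against each other directly. In AA 5 of the 28 genes were higher than in Igf-1 and 0 were lower, against 2.43% of all genes called higher and 1.89% called lower. The median log2 fold change of the 28 was 0.72, against -0.03 over all genes, and all AA libraries lay above all Igf-1 libraries for 18 of the 28, against 13.6% of all genes.

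TNNI2 had the largest log2 fold change of the 5, with 27167, 29989 and 17259 normalized counts in AA against 6796, 8304 and 7025 in Igf-1 (log2 fold change 1.75 ± 0.30, edgeR adjusted p = 0.00628). tnnt2c had 18241, 20151 and 15824 normalized counts in AA against 5531, 6490 and 5678 in Igf-1 (log2 fold change 1.62 ± 0.21, edgeR adjusted p = 0.00182). These 2 calls held under each of the 18 alternative settings and left-out libraries tried, of which the setting without a fold threshold could not lose a call. In both genes the lowest AA library was at least double the highest Igf-1 library.

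The other 3 calls were each lost when any one of several libraries was left out, and also with the replicate block. acta2 had 28491, 26870 and 17094 normalized counts in AA against 8811, 10792 and 12496 in Igf-1 (log2 fold change 1.17 ± 0.23, edgeR adjusted p = 0.0129), and was lost without AA replicate 1 (adjusted p = 0.05004), Igf-1 replicate 1 (0.0619) or Igf-1 replicate 2 (0.0633). lmod2b had 190, 213 and 227 normalized counts in AA against 47, 65 and 94 in Igf-1 (log2 fold change 1.61 ± 0.35, edgeR adjusted p = 0.0193), and was lost without AA replicate 3 (0.0550), Igf-1 replicate 1 (0.0794) or Igf-1 replicate 2 (0.0874). ACTA1 (ENSSAUG00010015572) had 206187, 261454 and 151629 normalized counts in AA against 101379, 102146 and 102919 in Igf-1, a log2 fold change of 1.01 ± 0.28 that sat at both thresholds (edgeR adjusted p = 0.0487). The ACTA1 call was lost without any one of AA replicates 1 and 2, the 3 Igf-1 replicates and CTR replicate 1, where adjusted p ranged between 0.0750 and 0.163.

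On adjusted p alone 9 of the 28 were higher, against 4.30% of all genes. The 4 that missed the fold threshold were tpm2 (log2 fold change 0.99 ± 0.23, edgeR adjusted p = 0.0259), the ACTG1 gene ENSSAUG00010005095 (0.91 ± 0.22, 0.0319), cap2 (0.83 ± 0.15, 0.00763) and LMOD3 (0.58 ± 0.15, 0.0338). The ACTG1 gene was called without AA replicate 3 (log2 fold change 1.07). With CTR replicate 3 and AA replicate 2 both left out (chosen after seeing the data), the ACTA1 gene ENSSAUG00010015572 fell below the fold threshold, at 0.82 (edgeR adjusted p = 0.0178). The tropomyosin tpm2 was called with RLE size factors (log2 fold change 1.03), with DESeq2 (1.03), without AA replicate 3 (1.12) and without CTR replicate 3 (1.03, adjusted p = 0.00621). CTR replicate 3 is in neither of the groups compared here. tmod4 just missed, at a log2 fold change of 0.94 ± 0.26 (edgeR adjusted p = 0.0506).

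Genes around the thin filament, from lists drawn up with earlier results of these data known, gave further values. Among all genes, 4.83% were called higher and 3.79% lower with AA, and 0.141% and 0.119% with Igf-1. The median log2 fold change over all genes was -0.01 with AA and -0.0045 with Igf-1. Of 32 tested genes for thin filament assembly and anchoring at the Z-disc, 12 were called higher with AA and 0 lower, with a median log2 fold change of 0.96. They included ldb3b, which encodes a Z-disc PDZ-LIM protein (log2 fold change 2.04, edgeR adjusted p = 6.98e-05), fhod3a, which encodes a formin of the sarcomere (2.55, 7.32e-05), and tcap, which encodes the titin cap (2.16, 9.46e-05). With Igf-1, 3 of the 32 were called higher: fhod3a (log2 fold change 1.58, edgeR adjusted p = 0.0128), ldb3b (1.03, 0.0272) and klhl40a, a stabiliser of LMOD3 in mammals (1.53, 0.0383).

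Of 22 tested genes for actin nucleation and turnover, 1 was called with AA, coro1cb (log2 fold change 1.32, edgeR adjusted p = 0.000243), and 0 with Igf-1. That count was near the share over all genes, of which 4.83% were called higher with AA. The list's median log2 fold change with AA was 0.43, against -0.01 over all genes. Of 9 tested genes on a list around Srf, the transcription factor that drives many actin genes, 2 were called higher with AA. These were SRF itself (log2 fold change 1.05, edgeR adjusted p = 0.0208) and fhl2a (1.96, 0.0296). The Srf coactivator genes mrtfab, mrtfba, mrtfbb and MYOCD were not called, with log2 fold changes of -0.42, 0.27, 0.03 and 0.14. With Igf-1, 0 of the 9 passed. The median log2 fold change of the Srf list was 0.14 with AA, against -0.01 over all genes.

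Some of the markers of muscle identity were higher with AA as well. Of 20 tested, 10 were called higher with AA and 0 lower, against 4.83% and 3.79% of all genes. Their median log2 fold change was 0.99, and myl1, the fast alkali light chain, led them (log2 fold change 3.82, edgeR adjusted p = 6.98e-05). Those not called included myog (log2 fold change 0.46, edgeR adjusted p = 0.168), mymk (0.21, 0.569) and DES (0.62, 0.0994). With Igf-1, 1 of the 20 was called, myl1 (log2 fold change 1.68, edgeR adjusted p = 0.0302). The summed normalized counts of these markers were 1198357 to 1757671 in AA, 956455 to 1219481 in Igf-1 and 674228 to 1121349 in CTR, so neighbouring groups overlapped and AA and CTR did not. The part of muscle cell content in the thin filament results was not tested.

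Markers of other cells were also counted, against 4.83% of all genes called higher and 3.79% called lower with AA. Of 7 tested smooth muscle markers 0 were called with AA, and their summed normalized counts overlapped, at 111678 to 169364 in AA and 106554 to 156752 in CTR. Of the cardiac markers, nppa, tbx5a and myl7 were listed at 0 in all 9 libraries, while myh6 averaged 182 ± 4.85 normalized counts in AA (SD, n = 3) and was listed at 0 in CTR. It was the 1 cardiac marker with enough counts for the test and was called higher with AA (edgeR adjusted p = 0.00114). With AA, 0 of 9 fibroblast markers were called higher and 1 lower, 1 of 7 endothelial markers higher and 1 lower, 1 of 7 leukocyte markers higher, 1 of 7 neural and glial markers higher, and 2 of 9 pigment cell markers lower. The summed counts of the endothelial markers were lower without overlap, at 2264 to 2640 in AA and 4052 to 6891 in CTR. Their median log2 fold change was 0.54, against -0.01 over all genes, so the sum and the typical marker moved in opposite directions. The summed counts of the pigment cell markers were also lower without overlap, at 990 to 1300 in AA and 1872 to 2592 in CTR. Their median log2 fold change was -0.74. The sums of the fibroblast, leukocyte, and neural and glial markers overlapped.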

How the data were processed

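Poly(A) RNA of 9 libraries (3 each of AA, Igf-1 and CTR) was prepared with a stranded kit; how strand entered the counting is not stated. According to the submitters' processing notes and methods, the authors mapped reads with HISAT2 to the species' Ensembl genome, whose build is not named, and estimated expression with StringTie. The deposited table, called normalized by the authors, keeps totals that differ between libraries. Its values were taken as the authors' estimated counts per gene, with about 4 counts per sequenced pair (inferred from peaks at multiples of 4), and were rounded here. The design had been written for plain counts. The deposited FPKM are the authors' values; 16 of the 34 genes had deposited CTR FPKM and 18 were derived from the counts, which are proportional to FPKM within a gene (99th percentile of the log2 difference 0.00755 over 853 genes). FPKM levels, sums and shares were not TMM-scaled, and such scaling would alter levels and sums but not shares within a library. Deposited fold changes and p-values were not used, nor was the table of lncRNA FPKM.

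Genes were filtered with filterByExpr, scaled with TMM (factors 0.791 to 1.21) and fitted over all 9 libraries with the quasi-likelihood test of edgeR 4.0.16 in R 4.3.3, with Benjamini-Hochberg adjustment over 17687 genes. A standard error is the log2 fold change divided by the root of F. The fit was run on simulated independent libraries with the same dispersion for all genes, to check that median changes had the right sign. That run is no measure of how reliable the calls are. Alternatives were RLE size factors, no filter, DESeq2 1.42.0, a fit of the compared groups, the replicate number as a block, no fold threshold, counts divided by 4, TMM without the 34 genes, each library left out and, chosen after seeing the data, CTR replicate 3 and AA replicate 2 left out together. Values in every library are given for genes called in any comparison and for the most abundant gene of each class, and at most 3 called genes are named per related list. The genes and lists were chosen with earlier results of these data known. Sequences of promoters and proteins were not used here.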

Additional observations from a re-analysis of the deposited data

How the results depend on the processing

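Of the calls with AA over CTR, 9 of 13 held under all 18 alternatives, of which the setting without a fold threshold could not lose a call. The count was 10 to 15 when each library was left out. With Igf-1 over CTR the count of 0 became 1 without the filter, 4 with DESeq2, 4 with CTR replicate 3 and AA replicate 2 left out together (chosen after seeing the data), and 0 to 3 when each library was left out, 3 without CTR replicate 3. Between AA and Igf-1 the 5 calls became 9 without the fold threshold, and 2 to 7 when each library was left out. Replicate numbers did not clearly pair the libraries. Same-numbered libraries had correlations of 0.13, -0.25 and -0.39 between AA and CTR, and 0.12, 0.017 and -0.22 between AA and Igf-1. Between Igf-1 and CTR they were 0.22, -0.0049 and 0.19, where unlike-numbered libraries ran from -0.22 to 0.071. The largest values were unlike-numbered: 0.40 for AA replicate 2 with CTR replicate 3, and 0.31 for AA replicate 3 with CTR replicate 2. The next was unlike-numbered as well, at 0.30 for AA replicate 2 with Igf-1 replicate 3. Whether libraries shared a culture under other numbers was not tested, and they were fitted as independent. With the replicate block the AA over Igf-1 count was 2, and those over CTR stayed at 13 and 0. The causes of these changes were not tested. The medians kept their direction throughout. From raw counts without length scaling, the sarcomeric share of actins was 21.9% in AA, 11.7% in Igf-1 and 4.93% in CTR; leaving out each library gave 25.1 to 27.4%, 14.1 to 15.1% and 5.96 to 6.94% in the same order of groups. Genes near 0 changed sign when a library was left out: tnni3k (AA over CTR) spanned -0.11 to 0.17, lmod1b (AA over CTR) -0.45 to 0.084 and cfl2 (Igf-1 over CTR) -0.085 to 0.22. tnni4a, tnni1a and tnnc1a, with at most 70 normalized counts in a library, had standard errors of 0.64 or more, so only large changes could pass.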

Other observations

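The leiomodin lmod1b, the smooth muscle form in mammals, had the lowest log2 fold change of the tested thin filament genes with Igf-1, and was picked out after its values were seen. It had 404, 441 and 454 normalized counts in Igf-1, against 1249, 1217 and 453 in CTR, and 1111, 736 and 812 in AA. CTR replicate 3 sat at the Igf-1 level, far below the other CTR libraries. Its log2 fold change with Igf-1 over CTR was -1.17 ± 0.34 (edgeR adjusted p = 0.230), against -1.51 without CTR replicate 3 (adjusted p = 0.0212), and DESeq2 gave -1.18 (adjusted p = 0.0335). With AA over Igf-1 it was 1.03 ± 0.34 (edgeR adjusted p = 0.0978), 1.06 without CTR replicate 3 (adjusted p = 0.00571) and 1.16 with AA replicate 2 left out as well (adjusted p = 0.00324). Neither of these groups holds CTR replicate 3, which reaches this comparison only through the fit shared by all libraries. CTR replicate 3 was also the highest CTR library for ACTA1 (ENSSAUG00010015572), TNNI2, TNNC2, TPM1, tpm2, tnnt2c and tmod4, but the lowest for LMOD3, lmod2b and tmod1.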
